A study of Homo sapiens with 3 samples.

Results

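Large ribosomal subunit assembly factors are the proteins that build the large subunit of the ribosome but are not part of the finished particle. The set was chosen by gene name as factors of large-subunit assembly and export. The rule itself uses no measured value, but earlier results of these data were known when the set was chosen. Of 42 listed genes, 40 are held in the guide tables, among 20449 genes in all, and PPAN and PELP1 are not analysed here. Each of the 40 genes is targeted by 3 guides, and all 120 guides passed a minimum of 10 normalized reads at day 0.

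The study is a pooled knockout screen with the GeCKO library in NUGC3, an established line of human gastric cancer cells, in which a guide RNA in each cell directs Cas9 to cut 1 gene. The cells of all 3 groups carry the library, and the groups were cells kept for 14 days in 10 nM RTX, cells kept for 14 days in the solvent DMSO, and DMSO cells at day 0. RTX is not spelled out in the labels, and the title of the series speaks of sensitivity to antifolate drugs and of MYC, cohesin and Mediator. Group names follow the sample titles, although a treatment note gives the day 0 cells 14 days in DMSO. Each group was 1 library, so no difference between groups has a replicate check, and the day 0 cells, not the plasmid pool, are the starting point.

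Assembly of the large subunit begins in the nucleolus, where long precursor RNA is folded, modified and cut while ribosomal proteins are added. Scaffold proteins, RNA helicases, GTPases and large AAA ATPases bind in turn and are released, the particle passes through the nuclear pore with an export adaptor, and the last factors leave in the cytoplasm. Dividing cells need a steady supply of new ribosomes, and many of these factors are known as genes that proliferating human cells cannot do without. In a growth screen, guides against such genes are lost from the pool as cells divide, because the cells that carry them fall behind.

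The reads of a guide in genomic DNA stand for the cells that carry it. The RTX, DMSO and day 0 libraries held 17344507, 18805737 and 16547572 reads, with medians of 232, 251 and 230 reads per guide over all genes. The 120 guides against assembly factors took 30600 reads in RTX (0.176%), 23079 in DMSO (0.123%) and 28775 at day 0 (0.174%). Of the 30600 RTX reads, 2682 were those of a single DDX10 guide, so the RTX total rests in part on it. Their median was 192.5 reads in RTX, 130.5 in DMSO and 207 at day 0. The DMSO library was thus the one in which these guides were scarce. It held 6 of them at under 10 reads, against 1 in RTX and 0 at day 0.

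A guide's log2 ratio was taken between normalized reads of 2 libraries with 5 added to each, and a gene's value is the median of its guides. A gene or guide is called lower or higher where its value is at least 2-fold, that is at or beyond -1 or 1 on the log2 scale. With 3 guides, a called gene has at least 2 guides past that limit. These calls are a rule of size and not a test. The share of all 20150 genes with at least 2 guides that meets the same rule is given beside the counts of assembly factors. Not all of those genes have 3 guides, and shares for all guides or at least 1 guide of a gene were not adjusted for that.

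After 14 days without drug, guides against most assembly factors were scarcer than at the start. In DMSO day 14 over day 0, 12 of the 40 genes were lower by the 2-fold rule, which is 30%, where 3.42% of all genes were. These were MAK16, RSL24D1, SDAD1, DDX56, PES1, NIP7, TEX10, GNL3, NMD3, LAS1L, NOP16 and NLE1. With the mean of guides in place of the median, NLE1 (-0.91), LAS1L (-0.92) and TEX10 (-0.98) fell short of the limit, and WDR74, NOP2, FTSJ3 and DDX18 passed it. None was higher, where 0.109% of all genes were. The median of the 40 genes was -0.61, with quartiles of -1.20 and -0.26 and a range of -2.84 to 0.64, beside a median of about 0 over all genes. Of the 40, 32 lay under 0, beside 10091 of all 20150 genes. All 3 guides were under 0 for 19 of the 40, where 14.6% of all genes had all of their guides under 0. None had all guides over 0, where 14.0% of all genes did.

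By single guide, more of them were lower than in either background. In DMSO day 14 over day 0, 45 of the 120 guides (37.5%) were lower, where 7.52% of all guides were, and none was higher, where 2.32% of all guides were. Non-targeting guides, which cut nothing in the genome, were lower in 2.02% and higher in 3.53% of 991 cases. The assembly factor guides had an SD of 1.12 around a median of -0.61, against 0.53 around 0.19 for the non-targeting guides. At least 1 guide was lower for 30 of the 40 genes, where 19.0% of all genes had one. Of those 30 genes, 18 had a single lower guide, 9 had 2 and 3 had all 3, so guides of the same gene often differed.

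**Figure D1:**
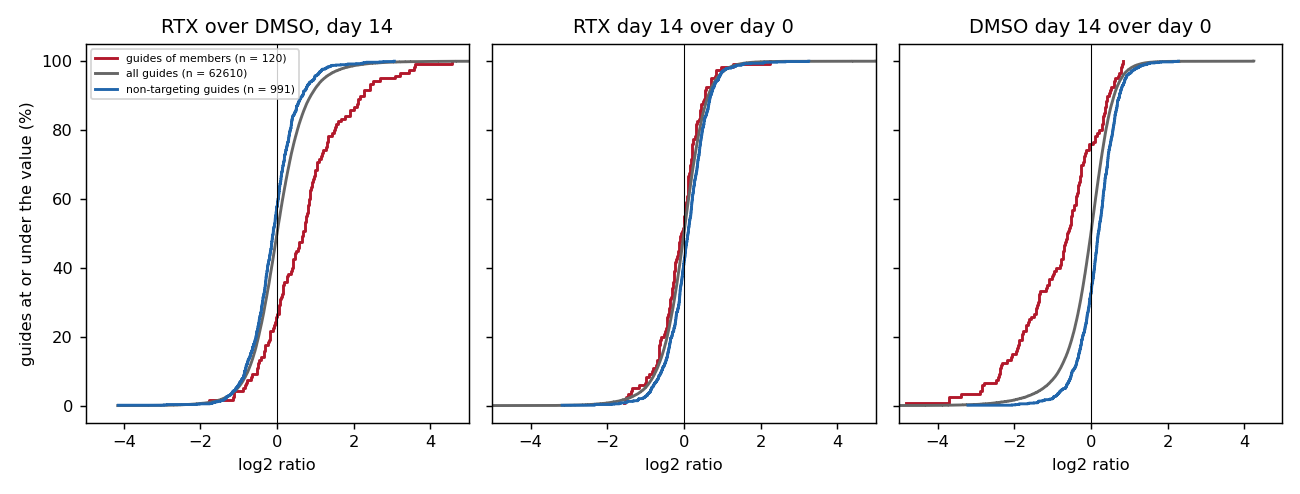
Cumulative distribution of guide log2 ratios for the 120 assembly factor guides (red), all 62610 guides (grey) and 991 non-targeting guides (blue), for RTX over DMSO, RTX day 14 over day 0 and DMSO day 14 over day 0. The x axis is the log2 ratio, drawn from -5 to 5, and the y axis is the percent of guides at or under it. The red curve lies right of the others for RTX over DMSO, close to them for RTX over day 0, and left of them for DMSO over day 0.

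In RTX the medians of these genes lay on both sides of their day 0 level. In RTX day 14 over day 0, none of the 40 genes was lower, where 1.39% of all genes were, and none was higher, where 0.620% were. The median was 0.01, with quartiles of -0.36 and 0.11 and a range of -0.999 to 0.57. That median was -0.09 with the non-targeting guides as the zero point and -0.05 with equal library totals, so its sign is not settled. All guides were under 0 for 8 genes, where 14.0% of all genes had that, and all were over 0 for 4, where 14.0% had that. At least 1 guide was lower for 8 genes (20%), where 14.6% of all genes had one. By guide, 8 of 120 were lower (6.67%) beside 5.32% of all guides, and 2 were higher (1.67%) beside 3.18% of all guides. The share of lower guides was close to that of all guides, and the share of higher guides was smaller. Whether any of these shares differ from those of all genes and guides was not tested.

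The direct comparison of the drug with its solvent asks which knockouts gained or lost ground in RTX relative to DMSO at the same time. In RTX over DMSO, 6 of the 40 genes were higher (15%), where 2.75% of all genes were. These were DDX56, NIP7, RSL24D1, MAK16, DDX18 and PES1, of which DDX18 was not called with a pseudocount of 20. None was lower, where 0.844% of all genes were. The median of the 40 was 0.66, with quartiles of 0.15 and 0.85 and a range of -0.89 to 2.42. Of the 40, 33 lay over 0, beside 10009 of all 20150 genes. All 3 guides were over 0 for 16 genes, where 13.9% of all genes had all of their guides over 0. They were under 0 for 1 gene, where 13.3% of all genes had all of theirs under 0. At least 1 guide was higher for 29 genes, where 20.9% of all genes had one. By guide, 38 of 120 were higher (31.7%) beside 7.89% of all guides, and 5 were lower (4.17%) beside 5.43%.

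The comparisons share libraries, so they are not separate evidence: day 0 stands under both ratios to the start, and DMSO enters 2 of the 3 ratios. A guide with few DMSO reads is low in DMSO over day 0 and high in RTX over DMSO from the same reads. The values are therefore set side by side. The 12 genes that were lower in DMSO had a median of -0.31 in RTX over day 0 and of -1.60 in DMSO over day 0. In RTX over day 0 they ran from -0.999 for LAS1L, just short of the 2-fold rule, to 0.57 for NIP7, and 8 of the 12 lay under 0. Each of the 12 had a higher value in RTX over day 0 than in DMSO over day 0. Because they were picked for low DMSO values, that direction is partly set by the choice. Over all 40 genes, 31 had the higher value in RTX. The same count was not made over all genes, so no background share stands beside it.

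**Figure D2:**
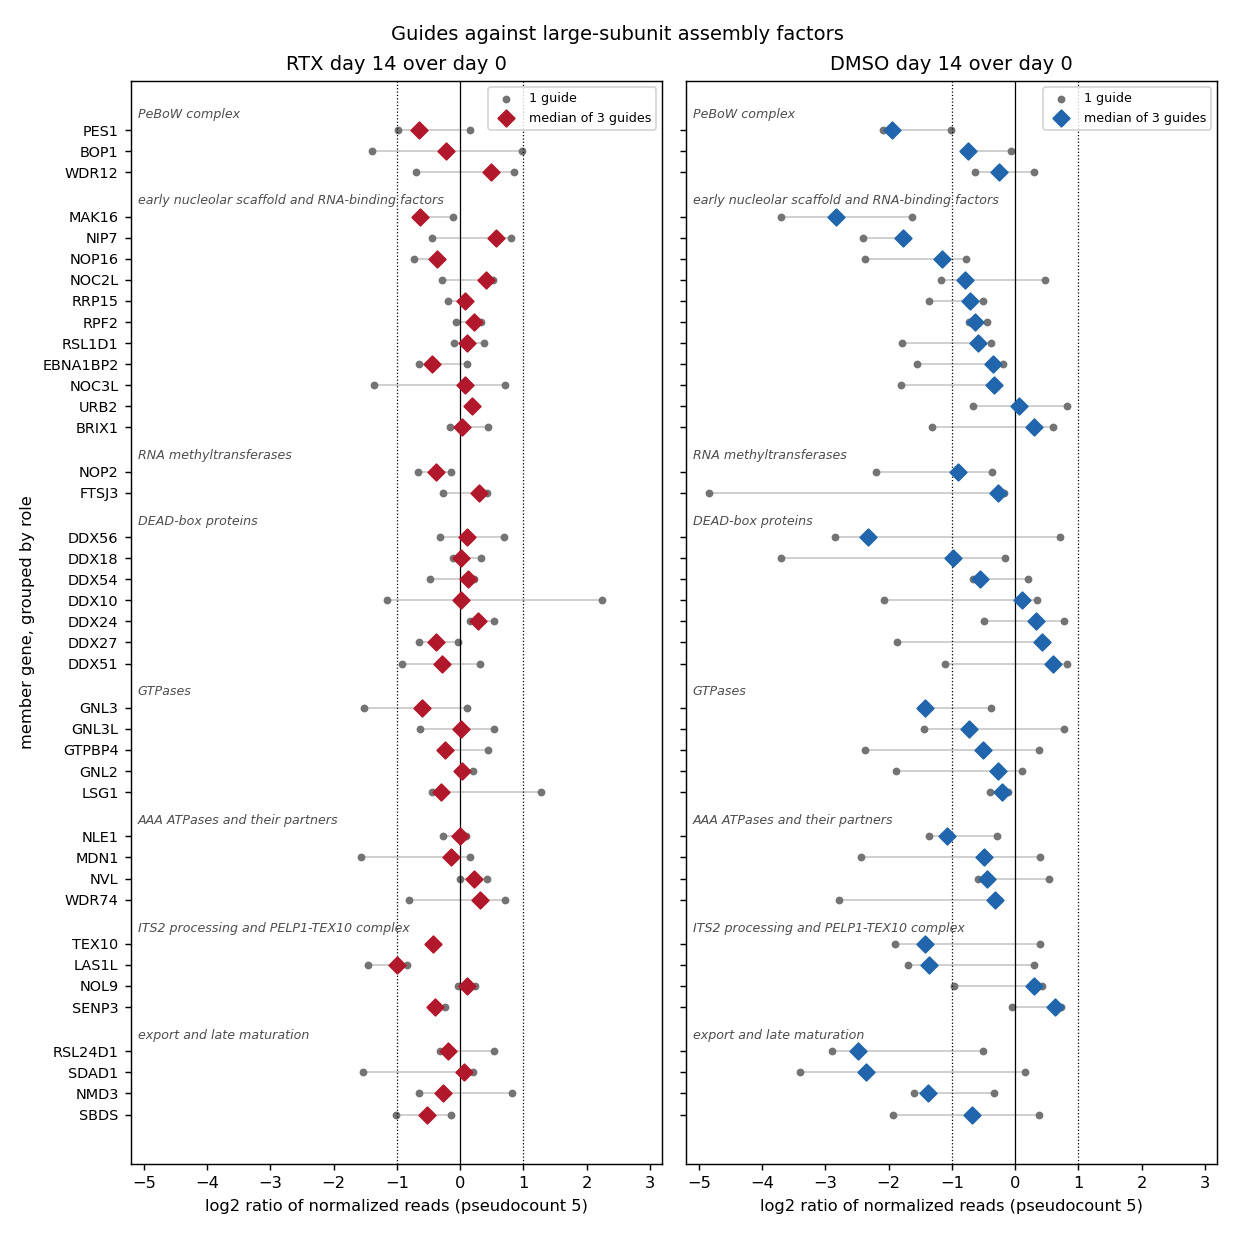
Log2 ratios of every guide (grey points) and the median of the 3 guides (diamonds) for the 40 assembly factors, ordered by role, in RTX day 14 over day 0 (left) and DMSO day 14 over day 0 (right). The x axis is the log2 ratio of normalized reads with a pseudocount of 5, and dotted lines mark the 2-fold limits. In the left panel no diamond passes a limit, and in the right panel 12 lie past -1.

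The series title names MYC, a transcription factor that binds, with its partner MAX, the letters CACGTG and that is known to drive ribosome production. Promoter sequences from RefSeq (GRCh38.p14), which run from 250 bases before to 50 bases after the start of the gene, were found for 34 of the 40 genes. CACGTG reads the same on both strands, and it was searched without mismatches. It was present in a promoter of 11 of the 34 genes (32.4%), beside 8.77% of all 27305 genes with a promoter and 10.9% of 15842 protein-coding genes. Counted by promoter, since some genes have several, it was in 12 of 38 (31.6%), beside 7.26% of all 35116 promoters. A match describes letters in this window and does not show that a factor binds there. The 5 matches in genes that were lower in DMSO are printed here, 30 bases each on the strand of the gene, with the motif in capitals. That of PES1 lies at chr22:30591880-30591909 (minus strand) with the motif 13 bases after the start, and that of NLE1 at chr17:35142274-35142303 (minus strand) with the motif 12 bases after. That of GNL3 lies at chr3:52686026-52686055 (plus strand) with the motif 6 bases after the start. That of SDAD1 lies at chr4:75991156-75991185 (minus strand) with the motif 228 bases before the start, and that of TEX10 at chr9:100352955-100352984 (minus strand) with the motif 30 bases before.
PES1: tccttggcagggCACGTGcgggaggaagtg
NLE1: ctctttctcctcCACGTGgggacgcaggat
GNL3: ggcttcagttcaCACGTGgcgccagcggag
SDAD1: tacatgctaacaCACGTGaaaaaatttaca
TEX10: gcgggctgcgatCACGTGagcacagcaggg
The other promoters with the motif were those of DDX54, EBNA1BP2, GNL2, MDN1, NOC3L and NOP2, none of which was lower in DMSO by the main rule. This split depends on the rule. NOP2 was lower when scaled to the non-targeting guides and with the mean of guides, and MDN1 with a filter of 50 reads. NLE1 and TEX10 were not lower with the mean of guides. No promoter was found for MAK16, which was lower in DMSO.

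The PeBoW complex of PES1, BOP1 and WDR12 is needed to mature the RNA of the large subunit. Guides against PES1 had 383, 158 and 249 reads in RTX, 188, 79 and 110 in DMSO and 343, 316 and 393 at day 0. All 3 were lowest in DMSO, with log2 ratios of -1.01, -2.09 and -1.95 over day 0, and PES1 was 1 of 3 genes with every guide past the 2-fold limit. In RTX over DMSO the 3 guides stood at 1.14, 1.09 and 1.28, a narrow spread of 0.19. The spread was wider in the other ratios, at 1.08 in DMSO over day 0 and 1.13 in RTX over day 0. In RTX over day 0 the guides of PES1 ran from -0.99 to 0.15, with a median of -0.66. BOP1 and WDR12 were not called, with medians of -0.74 and -0.26 in DMSO over day 0. The BOP1 guides disagreed in RTX over day 0, where they ran from -1.39 to 0.98.

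The early nucleolar scaffold and RNA-binding factors bind the precursor first. MAK16, known from yeast as a factor of the earliest large-subunit particles, had the lowest median of all 40 genes in DMSO over day 0, at -2.84. Its guides had 196, 107 and 265 reads in RTX, 106, 5 and 63 in DMSO and 305, 115 and 433 at day 0. Each DMSO value is below both others of the same guide, and in RTX over day 0 the median was -0.63. In RTX over DMSO the guides stood at 0.99, 3.59 and 2.12. The 5 DMSO reads of the second guide leave its ratio of DMSO over day 0 anywhere from -6.33 to -3.42 (95% exact interval of the ratio without the added reads, for counting error only).

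NIP7, an RNA-binding factor of precursor RNA processing, had 53, 123 and 189 reads in RTX, 8, 10 and 80 in DMSO and 34, 68 and 257 at day 0. All 3 guides were past the limit in DMSO over day 0, at -1.70, -2.41 and -1.78. In RTX 2 of the 3 guides were above their day 0 level, at 0.57 and 0.80, and the other at -0.44. NIP7 also had all 3 guides past the limit in RTX over DMSO, at 2.27, 3.21 and 1.32, as MAK16 did not.

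NOP16, an early nucleolar factor, was a weaker case. Its guides had 409, 191 and 147 reads in RTX, 109, 155 and 120 in DMSO and 523, 242 and 245 at day 0, which gave -2.37, -0.78 and -1.15 in DMSO over day 0. One guide carried most of the difference between drug and solvent, with 2.0 in RTX over DMSO beside 0.43 and 0.42. The other 8 scaffold factors, RPF2, BRIX1, EBNA1BP2, RRP15, RSL1D1, URB2, NOC2L and NOC3L, were not called in any comparison. Their medians in DMSO over day 0 ran from -0.79 for NOC2L to 0.30 for BRIX1. RPF2, which brings the smallest ribosomal RNA into the particle together with RRS1, had 3 similar guides at -0.64, -0.73 and -0.44. RRP15 had all guides under 0 as well, at -0.51, -1.37 and -0.71, of which 1 passed the limit.

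The RNA methyltransferases NOP2 and FTSJ3 modify the precursor RNA, and neither was called. NOP2 had a median of -0.91 in DMSO over day 0, close to the limit, with all guides under 0 from -2.20 to -0.37. FTSJ3 had the widest spread between guides of all 40 genes in that comparison. Its guides had 248, 312 and 108 reads in RTX, 169, 247 and 0 in DMSO and 183, 251 and 130 at day 0. The third guide was the only assembly factor guide at 0 in any library, and its ratio of DMSO over day 0 was at or under -5.28 by the same exact interval. The other two guides of FTSJ3 stood at -0.27 and -0.18.

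The DEAD-box proteins are RNA helicases that remodel the precursor, and their guides often differed in sign. Their median over 7 genes was 0.02 in RTX over day 0 and 0.11 in DMSO over day 0, and 1 of the 7, DDX56, was lower in DMSO. DDX56 guides had 131, 309 and 74 reads in RTX, 21, 346 and 11 in DMSO and 164, 188 and 68 at day 0. Thus 2 guides were far down in DMSO, at -2.84 and -2.32, and the other was up at 0.71. DDX18 guides had 155, 63 and 492 reads in RTX, 152, 25 and 41 in DMSO and 153, 49 and 532 at day 0. Of these, the third stood at -3.70 and the first at -0.16 in DMSO over day 0, with the median at -0.99, just short of the limit. It was called there with a pseudocount of 1, with either other scaling and with the mean of guides. In RTX over DMSO both genes were higher, with medians of 2.42 for DDX56 and 1.30 for DDX18. DDX24, DDX27, DDX51 and DDX10 had medians over 0 in DMSO over day 0, from 0.11 to 0.60, and DDX54 stood at -0.56.

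One DDX10 guide, singled out after its values were seen, had 2682 reads in RTX, 679 in DMSO and 562 at day 0. It was the most abundant assembly factor guide in RTX and held 2.24 in RTX over day 0. The other guides of DDX10 had 209 and 26 reads in RTX, and stood at 0.02 and -1.16, so the high value belongs to 1 guide, and the median of DDX10 was 0.02.

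The GTPases act as checkpoints at successive stages. GNL3, also called nucleostemin, was the one of the 5 that was lower in DMSO, with a median of -1.42. Its guides had 108, 48 and 259 reads in RTX, 66, 124 and 92 in DMSO and 166, 146 and 239 at day 0. The second guide went the other way from the rest between drug and solvent, with -1.15 in RTX over DMSO beside 0.80 and 1.58. GNL3L stood at -0.73 and GTPBP4 at -0.52 in DMSO over day 0. GNL2 stood at -0.26. LSG1, which acts in the cytoplasm to release the export adaptor NMD3, was at -0.21 in DMSO over day 0, with the tightest guides of all 40 genes there, between -0.40 and -0.12. In RTX over day 0 its guides were wider apart, from -0.45 to 1.28, and the highest was 1 of the 2 assembly factor guides that were higher in that comparison.

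The AAA ATPases MDN1 and NVL pull factors off the particle, and NLE1 and WDR74 are the partners through which they act. NLE1 was lower in DMSO with a median of -1.09. Its guides had 326, 345 and 235 reads in RTX, 203, 313 and 92 in DMSO and 391, 343 and 219 at day 0. The second guide hardly differed between libraries, with -0.29 in DMSO over day 0 and 0.00 in RTX over day 0. MDN1, NVL and WDR74 had medians of -0.50, -0.44 and -0.32 in DMSO over day 0. Single guides of MDN1 and WDR74 went much further, to -2.43 and -2.78. The WDR74 guide had 51 reads in RTX, 2 in DMSO and 40 at day 0, which leaves its ratio of DMSO over day 0 between -7.58 and -2.53 by the same exact interval.

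The factors that cut the second internal spacer of the precursor, and the PELP1-TEX10 complex around them, split in direction. LAS1L, the endonuclease that cuts this spacer, was the lowest of the 40 genes in RTX over day 0, at -0.999, and stood at -1.36 in DMSO over day 0. Its guides had 97, 83 and 43 reads in RTX, 74, 55 and 175 in DMSO and 177, 170 and 126 at day 0. All 3 were under day 0 in RTX, at -0.84, -0.999 and -1.46, whereas in DMSO the third was above it, at 0.30. The median of LAS1L was thus under day 0 in both cultures, although in DMSO the third guide was not.

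TEX10 was lower in DMSO with a median of -1.43. Its guides had 192, 81 and 417 reads in RTX, 71, 163 and 233 in DMSO and 250, 110 and 570 at day 0. All 3 guides were also under 0 in RTX over day 0, within the narrow span of -0.45 to -0.38. NOL9, the kinase that works beside LAS1L, had medians of 0.10 in RTX over day 0 and 0.31 in DMSO over day 0. SENP3, a SUMO protease tied to this complex, was the only one of the 40 genes with all guides under 0 in RTX over DMSO. Its guides had 163, 112 and 358 reads in RTX, 398, 167 and 736 in DMSO and 214, 155 and 422 at day 0. In DMSO over day 0 it had the highest median of the 40, at 0.64, and in RTX over DMSO the lowest, at -0.89, short of the limit. LAS1L, TEX10 and SENP3 reads are printed in full because of these values, which were known when they were chosen.

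The export and late maturation factors had the lowest median of the 8 roles in DMSO over day 0, at -1.87 over 4 genes, beside -0.23 in RTX over day 0. RSL24D1, a ribosomal protein relative that is exchanged for its mature counterpart late in assembly, had 478, 305 and 87 reads in RTX, 77, 71 and 44 in DMSO and 546, 378 and 58 at day 0. All 3 guides were past the limit in RTX over DMSO, at 2.69, 2.16 and 1.04. In DMSO over day 0 they stood at -2.90, -2.49 and -0.51. In RTX over day 0 none was far from 0, with values from -0.31 to 0.54.

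SDAD1, known from yeast as an export factor, had 64, 87 and 246 reads in RTX, 38, 4 and 263 in DMSO and 194, 83 and 212 at day 0. Its first 2 guides were at -2.36 and -3.40 in DMSO over day 0, and the third was at 0.15. The first guide was also low in RTX over day 0, at -1.54, while the second was at 0.06. NMD3, the adaptor that links the particle to the export receptor, had 107, 36 and 600 reads in RTX, 113, 22 and 119 in DMSO and 129, 59 and 334 at day 0. Its guides stood at -0.27, -0.65 and 0.83 in RTX over day 0 and at -0.34, -1.38 and -1.61 in DMSO over day 0. SBDS, which helps to free the finished subunit in the cytoplasm, was not called, with medians of -0.52 in RTX over day 0 and -0.69 in DMSO over day 0.

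**Figure D3:**
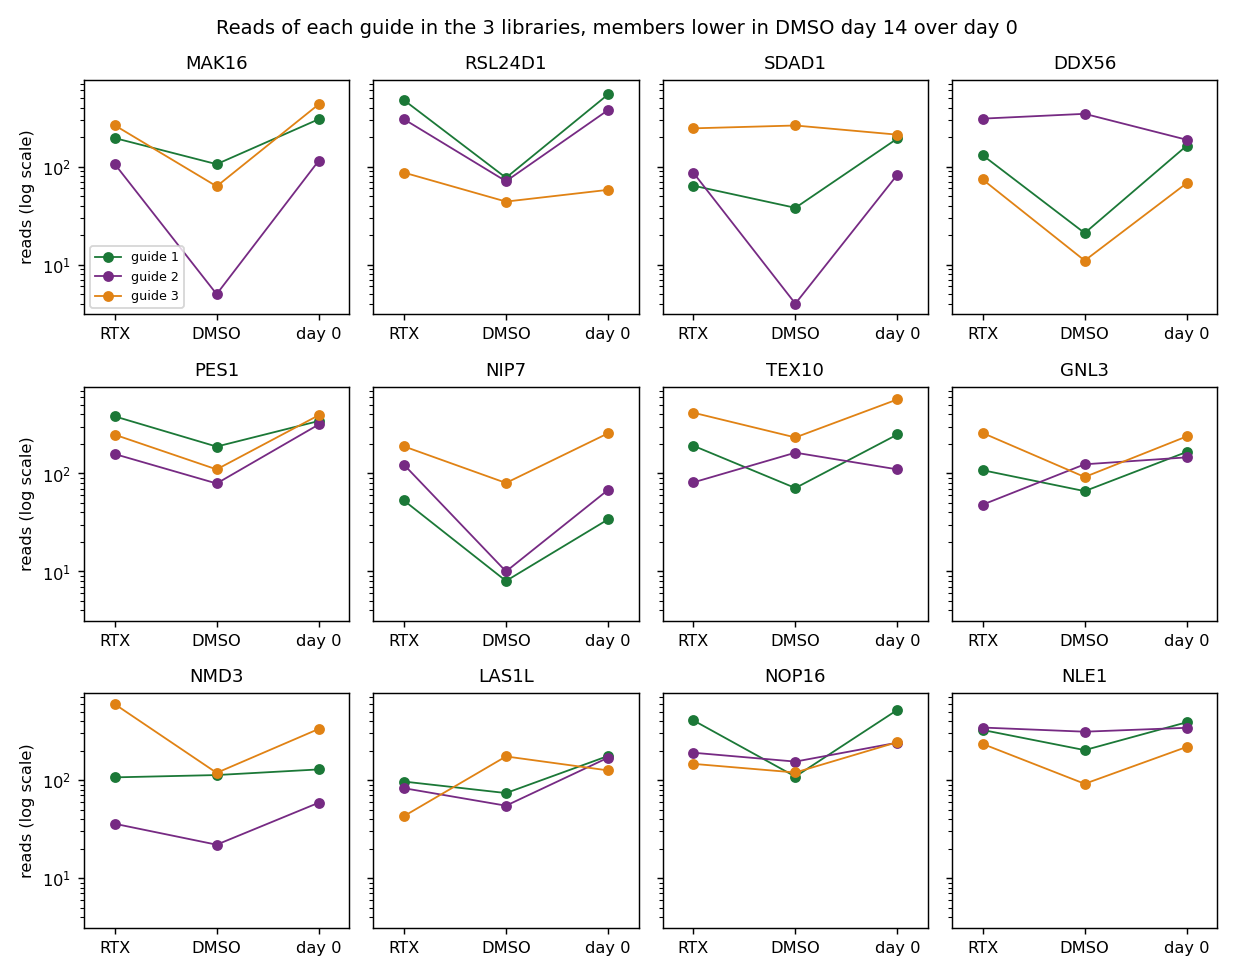
Reads of each of the 3 guides (coloured lines, log scale on the y axis) in the RTX, DMSO and day 0 libraries for the 12 genes that were lower in DMSO day 14 over day 0. Lines join the same guide and do not mark time. For MAK16, PES1, NIP7, RSL24D1, NOP16 and NLE1 every guide is lowest in DMSO, while for SDAD1, DDX56, TEX10 and LAS1L 1 guide is not below its day 0 reads in DMSO.

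The spread between guides of a gene was wide in the ratios that involve DMSO. The median distance between a gene's highest and lowest guide was 1.61 for the 40 genes, against 0.815 for all genes with 3 guides, in DMSO over day 0, and 1.74 against 0.962 in RTX over DMSO. In RTX over day 0 it was 0.70 against 0.799. Guides against the same gene share their target and are not replicates of a condition, and how well each guide cuts is not known from these tables. How far low cutting or low DMSO reads contribute to the spread was not tested.

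Other genes of the pathway were read in the same way. Of 28 other large-subunit assembly factors, 7 were higher in RTX over DMSO, with a list median of 0.51, none was called in RTX over day 0, with a median of -0.03, and 5 were lower in DMSO over day 0, with a median of -0.39. The shares of all genes called higher in RTX over DMSO and lower in DMSO over day 0 were 2.75% and 3.42%, as given above. XPO1, the export receptor that NMD3 binds, had medians of 0.99 in RTX over day 0, just short of the limit, and -1.60 in DMSO over day 0, which gave 2.08 in RTX over DMSO. SPATA5, whose yeast relative releases the counterpart of RSL24D1, stood at -0.11, -1.56 and 1.08 in RTX over day 0, DMSO over day 0 and RTX over DMSO. MKI67IP, a nucleolar RNA-binding protein, stood at -0.12, -1.19 and 1.51 in the same order. EIF6, the factor that SBDS helps to remove, was lower in DMSO at -1.02 and was not called in RTX over DMSO, at 0.59. RRP1B was lower in DMSO at -1.45 but stood at 0.06 in RTX over DMSO. RRS1, MRTO4, PAK1IP1 and TMA16 were higher in RTX over DMSO without being called in DMSO over day 0, with medians of 1.36, 1.00, 1.06 and 1.13.

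Ribosomal proteins of the large subunit and the processome, which starts the small subunit, were set beside the assembly factors. Of 46 large-subunit ribosomal proteins, 12 (26.1%) were higher in RTX over DMSO, beside 15% of the assembly factors and 2.75% of all genes. Of the same 46, 4 (8.70%) were lower in RTX over day 0, beside none of the assembly factors and 1.39% of all genes, with a median of -0.18. In DMSO over day 0, 18 (39.1%) were lower, beside 30% of the assembly factors and 3.42% of all genes, with a median of -0.85. Of 50 small-subunit processome genes, 15 (30%) were higher in RTX over DMSO and 13 (26%) were lower in DMSO over day 0. In RTX over day 0, 1 of the 50 (2%) was higher, beside 0.620% of all genes, and none was lower. Their median there was 0.12, and 13 of the 50 had all guides over 0. Among the assembly factors 4 of 40 had that, and 14.0% of all genes. In RTX over DMSO the median was 0.66 for the 40 large-subunit factors, beside 0.65 for the processome genes and 0.56 for the ribosomal proteins. The pattern is not shown to be particular to large-subunit assembly, and the differences between these lists were not tested.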

How the data were processed

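Genomic DNA of 3 NUGC3 cultures went through 2 rounds of PCR and Illumina sequencing, per the labels' protocols. The deposited data are 3 tables of guides, each setting 1 library against another. The submitters' processing notes name MAGeCK 0.5.7 and hg19, with read matching not given in the sources used here. The values, per the file headers, are a control and a treatment count, and the deposited signal behaves as reads divided by 1 size factor per library. The authors' deposited FDR (q-value) per guide served as an alternative. Division by the value of 1 read gave whole reads for 100% of values within a tolerance of 0.1, and each library had the same reads in both tables that hold it.

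Log2 ratios used a pseudocount of 5, so that changes of guides with few reads come out too small, and 62610 of 62916 guides that reached 10 normalized reads at day 0. Genes needed at least 2 guides, and 23 date-like names with 72 guides were left out. With 1 library per condition, no p-value compares conditions. Intervals are 95% exact binomial (Clopper-Pearson) and cover counting error only, since PCR reads without molecular identifiers are not independent molecules. The members and lists were chosen with earlier results of these data known. Genes given with all reads were past the 2-fold limit with all guides on 1 side of 0, or among the 3 with the widest guide range in DMSO over day 0, and additions are named as such. Coordinates are given only for RefSeq promoters (GRCh38.p14), because the authors' build differs.

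Alternatives comprised other pseudocounts (1 and 20), no filter or one of 50 reads, scaling to non-targeting guides or equal totals, the mean of guides, the deposited FDR under 0.05, and edgeR's exact test of recovered reads per guide, its 1 dispersion estimated on the non-targeting guides. Tools were Python 3.11.15, pandas 2.3.3, numpy 2.4.6, scipy 1.17.1, matplotlib 3.10.9, R 4.3.3 and edgeR 4.0.16.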

Additional observations from a re-analysis of the deposited data

How the results depend on the processing

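No paired analysis was possible because each condition was 1 library. Across pseudocounts, filters, scalings and the mean of guides, 12 to 14 of the assembly factors were lower in DMSO over day 0 and 5 to 8 were higher in RTX over DMSO, except that the mean of guides gave 11 in RTX over DMSO. The share of all genes called moved with them, from 2.46% to 5.33% lower in DMSO over day 0 and from 1.88% to 3.75% higher in RTX over DMSO. The genes that lost a call were NLE1, LAS1L and TEX10 in DMSO over day 0 with the mean of guides, and DDX18 in RTX over DMSO with a pseudocount of 20. In DMSO over day 0 the median moved to -0.80 when scaled to the non-targeting guides, which put the median of all genes at -0.19, and to -0.82 with the mean of guides. In RTX over day 0, 1 gene, LAS1L, was lower with a pseudocount of 1, with either scaling and with the mean of guides. Either scaling left 2 genes with all guides over 0 in RTX over day 0. With a filter of 50 reads, 1 gene had all guides over 0 in DMSO over day 0 and 2 had all guides under 0 in RTX over DMSO. No gene value past the 2-fold limit changed sign under these alternatives, and values short of it were not part of that check. With the mean of guides, over the 3 comparisons, 66 gene values moved beyond the counting error of their summed reads and 54 did not. Some changed sign: in DMSO over day 0 DDX27 went from 0.43 to -0.32 and BRIX1 from 0.30 to -0.14.

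Calls of single guides depended more on the rule. The edgeR exact test on recovered reads, adjusted over all guides, compares libraries only. In RTX over DMSO it called 11 assembly factor guides higher and 0 lower (33 at an unadjusted p under 0.05), in RTX over day 0 it called 1 higher and 0 lower (9 unadjusted), and in DMSO over day 0 it called 23 lower and 0 higher (43 unadjusted). Over all 62610 guides it called 584 higher and 251 lower, 127 higher and 422 lower, and 83 higher and 1302 lower in the same comparisons. At an unadjusted p under 0.05 it called 4969, 4247 and 5338 of all guides in that order. Of the 991 non-targeting guides it called 53, 43 and 48 at that limit. The dispersion was estimated on these same guides, so their counts are no separate check of the test. The 9 of 120 assembly factor guides in RTX over day 0 were thus close to the share of all guides. By the FDR of the authors' deposited tables, 52 assembly factor guides were higher and 3 lower in RTX over DMSO, 11 higher and 5 lower in RTX over day 0, and 10 higher and 43 lower in DMSO over day 0. As shares, 43.3% of them were higher in RTX over DMSO, beside 13.9% of all guides in the authors' deposited table, and 35.8% were lower in DMSO over day 0, beside 5.87%. The 9.17% higher in RTX over day 0 and the 8.33% higher in DMSO over day 0 were below the shares of all guides there, 10.9% and 9.71% in the authors' deposited tables. By that FDR 2.5% were lower in RTX over DMSO, beside 4.30% of all guides, and 4.17% were lower in RTX over day 0, beside 4.06%. The authors' deposited tables also marked 17.6% of non-targeting guides as higher in DMSO over day 0. Guides with few DMSO reads limit the precision of the largest ratios.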
